A study of Mus musculus with 8 samples.

Results

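The genes described here are 10 transcriptional targets of YAP and TAZ, the coactivators at the end of the Hippo pathway: Ccn1, Ccn2, Ankrd1, Amotl1, Amotl2, Ajuba, Lats2, Axl, Crim1 and Ptpn14. They were taken by name, as known targets, from a table of 38293 mouse genes. All 10 passed the filter on low counts, which kept 14567 genes. RNA was measured by sequencing polyA-selected transcripts from ventricles, a mix of left and right, of mice aged 8 weeks. One group of 4 libraries (HET) was heterozygous for a single-base deletion in Pkp2, called c.1755delA in the title of the study, with the wild-type allele as the other copy, and the other 4 libraries (WT) carried wild-type Pkp2 on both alleles. The genotype label and the name of the deposited table write the deletion differently from the title. Both groups received standard housing and no treatment is listed. The labels give no strain and do not say whether each library came from its own animal, so the p-values cover the spread among these libraries alone, which may be technical.

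Plakophilin-2, the product of Pkp2, is a desmosomal protein that anchors intermediate filaments at the junctions between cardiomyocytes, and variants in its gene are a main cause of arrhythmogenic cardiomyopathy. The Hippo pathway is a kinase cascade that reads cell contact, junctions and mechanical load. Stk3 and Stk4 with Sav1 activate Lats1 and Lats2, which phosphorylate YAP (gene Yap1) and TAZ (gene Wwtr1) and hold them out of the nucleus. Unphosphorylated YAP and TAZ enter the nucleus and activate genes through the DNA-binding TEAD factors, which recognise the M-CAT element, read as CATTCC on one strand and GGAATG on the other. In the heart the pathway is known for restraining cardiomyocyte proliferation and heart size. Several targets act back on the cascade, so they are read both as outputs and as regulators.

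The level of Pkp2 matched the labels. Pkp2 was at 99.2, 88.2, 96.0 and 105.6 CPM (counts relative to the library size, after TMM scaling) in HET replicates 1 to 4 and at 169.1, 167.6, 148.5 and 165.7 CPM in WT replicates 1 to 4. Every HET library lay below every WT library, with a log2 fold change of HET over WT of -0.74 and an SE of 0.065 (edgeR quasi-likelihood test, p adjusted over all genes tested by Benjamini-Hochberg = 0.00376). Libraries held 32397302 to 38611008 counts in HET and 38510257 to 41234883 in WT. The sample titles hold runs of digits whose meaning is not given. The 4 digits before the last pair were shared by HET replicates 1, 3 and 4 and WT replicate 1 (the first set) and by HET replicate 2 and WT replicates 3 and 4 (the second set), and WT replicate 2 had digits of its own. In a fit with the digits as a covariate, WT replicate 2 therefore adds nothing to the genotype estimate, which rests on the first and second sets. In each of these sets either HET or WT is a single library. Because whole tissue was measured, fewer cells of a type and less RNA per cell cannot be told apart.

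The promoters of these genes are shown first because the letters TEAD factors recognise lie close to an annotated start in 8 of the 9 genes with a promoter entry. In RefSeq promoter windows on GRCm38.p6, which run from 250 bases before to 50 bases after the transcript start, 9 of the 10 genes had an entry and Lats2 had a pair, for 10 windows. The TEAD core GGAATG, searched on both strands, was present in 8 of these 10 windows and in 8 of the 9 genes (88.9%). Over all windows it was present in 4817 of 32851 (14.7%), and over all genes in 4481 of 27025 (16.6%). Ccn2 had no entry. Amotl1 and the second window of Lats2 held no match. The Amotl1 window (chr9:14614951-14615250, minus strand) lies inside the gene as GENCODE places it (chr9:14541966-14645056), away from its 5′ end. The windows of Lats2, Amotl2 and Ankrd1 also lie inside their genes, and other starts were not searched. Since the genes were listed as YAP and TAZ targets, this share is a description of the list and not independent evidence about it. A match is a run of letters and was not tested for binding.

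Upstream sequence is given for the genes whose values varied most or stood apart, from the 5′ end of the gene's own strand, with the TEAD core in capitals and the transcript start just after the last base. The 250 bases shown for Ccn1 are chr3:145649986-145650235 (minus strand), those for Ankrd1 are chr19:36119845-36120094 (minus strand) and those for Amotl2 are chr9:102717554-102717803 (plus strand).
Ccn1: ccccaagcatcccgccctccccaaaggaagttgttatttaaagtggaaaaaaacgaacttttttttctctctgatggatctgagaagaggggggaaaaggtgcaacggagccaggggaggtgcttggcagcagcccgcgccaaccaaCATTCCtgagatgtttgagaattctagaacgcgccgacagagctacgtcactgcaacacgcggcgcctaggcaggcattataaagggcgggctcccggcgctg
Ankrd1: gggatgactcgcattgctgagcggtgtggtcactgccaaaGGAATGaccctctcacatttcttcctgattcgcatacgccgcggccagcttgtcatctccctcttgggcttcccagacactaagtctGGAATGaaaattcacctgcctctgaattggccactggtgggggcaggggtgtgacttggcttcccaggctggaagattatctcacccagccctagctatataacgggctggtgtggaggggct
Amotl2: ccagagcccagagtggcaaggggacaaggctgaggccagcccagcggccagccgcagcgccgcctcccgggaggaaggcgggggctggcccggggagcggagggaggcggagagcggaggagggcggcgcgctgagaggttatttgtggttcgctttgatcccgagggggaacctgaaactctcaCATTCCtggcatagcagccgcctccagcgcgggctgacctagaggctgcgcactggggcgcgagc
Ankrd1 held a pair of matches, both reading GGAATG, with first bases at -210 and -123 from the start. Ccn1 held CATTCC at -103, and Amotl2 held CATTCC at -65.

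The matches of the other genes are shown with 15 bases on either side, so that the letters around each core can be compared. The stretches are chr14:54577827-54577862 and chr14:54577805-54577840 for Ajuba (minus strand, overlapping each other), chr14:57746099-57746134 for Lats2 (minus strand), chr7:25788946-25788981 for Axl (minus strand), chr17:78200154-78200189 for Crim1 (plus strand) and chr1:189728107-189728142 for Ptpn14 (plus strand).
Ajuba first match: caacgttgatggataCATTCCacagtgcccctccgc
Ajuba second match: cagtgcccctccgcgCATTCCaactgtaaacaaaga
Lats2: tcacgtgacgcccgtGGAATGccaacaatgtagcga
Axl: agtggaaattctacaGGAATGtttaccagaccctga
Crim1: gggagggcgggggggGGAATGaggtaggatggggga
Ptpn14: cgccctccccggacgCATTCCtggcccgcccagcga
The pair of cores in Ajuba began at -186 and -164 from the RefSeq start, which lies upstream of the Ajuba gene as GENCODE places it. The core of Lats2 lay just past the start, at 5, while those of Axl, Crim1 and Ptpn14 began at -233, -79 and -146. Of the 10 matches, 5 read GGAATG and 5 read CATTCC on the strand of the gene, so no orientation prevailed.

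**Figure D1:**
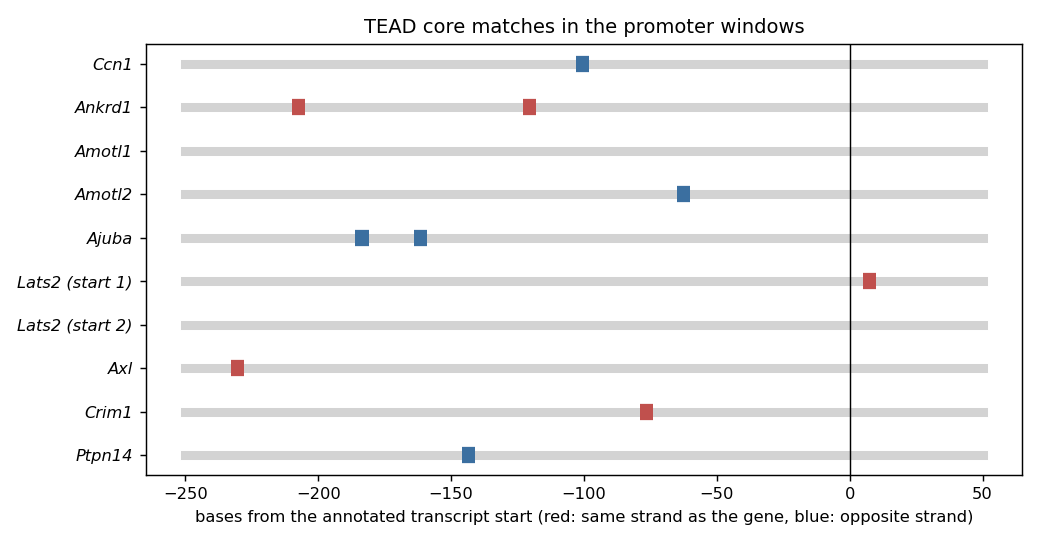
Positions of the TEAD core in the promoter windows of the genes with a RefSeq entry, in bases from the transcript start, with one row for each window. The 10 matches are spread from -233 to 5, and Amotl1 and the second Lats2 window show none.

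Other motifs and other gene lists give the scale of this share. The AP-1 site TGANTCA and the serum response factor CArG box, a motif of 10 letters, were in 0 of the 10 windows, against 7.81% and 1.63% of all windows (both strands searched). The absence of a match says only that they are not in that window. The TEAD core was present in 6 of 8 coactivator and TEAD genes with an entry, in 3 of 13 core kinases and adaptors and in 3 of 6 wall stress genes. A second list of YAP and TAZ targets, drawn up by the same kind of knowledge, held it in 0 of 8 genes with an entry.

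None of the 10 targets passed the test between HET and WT. With the edgeR quasi-likelihood test and Benjamini-Hochberg adjustment at 0.05, 0 of 10 were called, where 0.00686% of all genes tested were called, namely Pkp2 alone. DESeq2 also called 0 of the 10, with 14 genes called over the whole table, and limma-voom called 0 of the 10, with 1 gene over the whole table. At an unadjusted p below 0.05 there was 1 of 10, Amotl2, against 6.38% of all genes, and DESeq2 and limma-voom each gave 1 of 10 at that limit. Over the whole table, 930 genes were at that limit by edgeR, 1003 by DESeq2 and 1193 by limma-voom. No target had groups that did not overlap, against 3.78% of all genes. Fitted values were above 0 for 5 targets and below 0 for 5, with a median log2 fold change of 0.03 and a range of -0.20 to 0.24. Over all genes tested the median was -0.0038 and 48.5% were above 0. The median size of the log2 fold change, whatever its sign, was 0.14 over the targets and 0.08 over all genes, and the median SD of log2 CPM within a group was 0.15 and 0.14. Across the 10 targets, the 95% intervals of the fits ran from a lowest bound of 59.8% of the WT level to a highest bound of 155% of it.

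**Figure D2:**
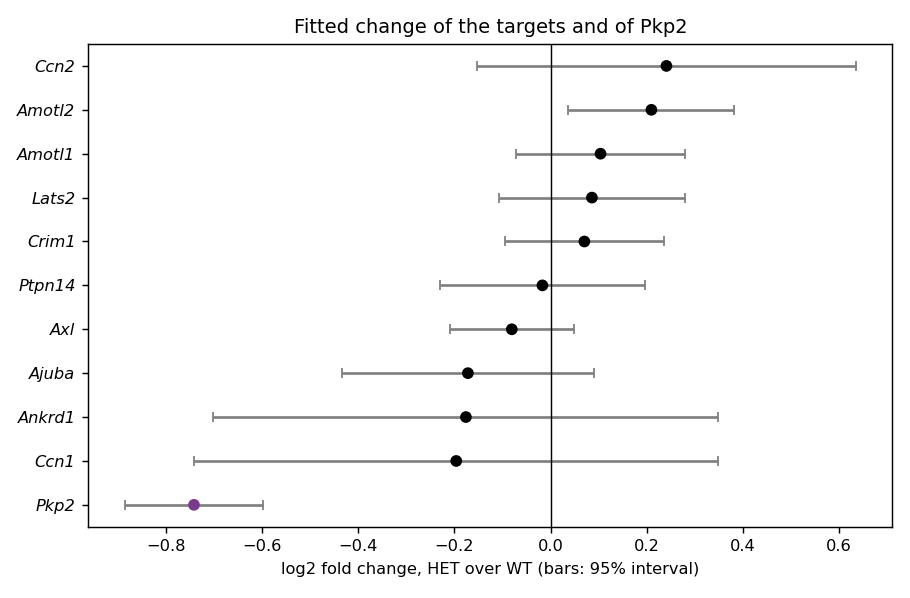
Fitted log2 fold change of HET over WT for each target and for Pkp2 (points), with 95% intervals from the edgeR fit (bars). Intervals cross 0 for every target except Amotl2 (0.04 to 0.38), whose unadjusted interval does not allow for the number of genes tested, and Pkp2 stands at -0.74.

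Ccn1 and Ccn2, the secreted matricellular proteins formerly named Cyr61 and Ctgf, are the targets most often read as YAP and TAZ outputs, and here their fitted values had opposite signs. Ccn1 (ENSMUSG00000028195, chr3:145646976-145649981, minus strand) was at 105.5, 95.2, 155.1 and 162.2 CPM in HET replicates 1 to 4 and at 144.0, 155.7, 107.9 and 186.1 CPM in WT replicates 1 to 4. HET replicates 1 and 2 and WT replicate 3 formed the low end and WT replicate 4 the high end, so the groups overlapped. Mean levels were 129.5 ± 34.0 and 148.4 ± 32.3 CPM (SD, n = 4 each), with a log2 fold change of -0.20 (SE 0.232, 95% interval -0.74 to 0.35, adjusted p = 0.879 by edgeR). Ccn2 (ENSMUSG00000019997, chr10:24595442-24598683, plus strand) was at 102.5, 98.3, 90.5 and 154.2 CPM in HET and at 104.9, 96.5, 80.7 and 94.9 CPM in WT. HET replicate 4 stood above the other 7 libraries, which overlapped. The log2 fold change of Ccn2 was 0.24 (SE 0.171, 95% interval -0.15 to 0.64, adjusted p = 0.788). Exons of Ccn2 share 665 bases with those of the antisense gene Gm15270, which itself had 60 to 133 counts against 3150 to 5493 for Ccn2.

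Ankrd1, which encodes a stretch-responsive ankyrin repeat protein of the cardiac sarcomere and nucleus, was by far the most abundant target. Ankrd1 (ENSMUSG00000024803, chr19:36111961-36120099, minus strand) was at 1742, 1009, 1093 and 1459 CPM in HET replicates 1 to 4 and at 1988, 1424, 1225 and 1354 CPM in WT replicates 1 to 4. WT replicate 1 was highest, HET replicate 1 came next, and HET replicates 2 and 3 were lowest. Mean levels were 1326 ± 339 CPM for HET against 1498 ± 337 CPM for WT (SD, n = 4 each). The log2 fold change was -0.18 (SE 0.223, 95% interval -0.70 to 0.35, adjusted p = 0.885), and it was -0.01 without WT replicate 1, -0.34 without HET replicate 1 and -0.42 with the title digits as a covariate (unadjusted p = 0.0635). Of its relatives among the muscle ankyrin repeat proteins, Ankrd23 was at 569 ± 81 and 600 ± 203 CPM, and Ankrd2 was at 0.36 ± 0.09 and 0.40 ± 0.09 CPM in HET and WT.

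Amotl1 and Amotl2 encode angiomotin-like proteins of tight junctions that bind YAP and hold it in the cytoplasm. Amotl2 (ENSMUSG00000032531, chr9:102716672-102733418, plus strand) was at 90.1, 77.2, 104.0 and 88.0 CPM in HET replicates 1 to 4 and at 76.8, 76.3, 76.5 and 81.1 CPM in WT replicates 1 to 4. HET replicate 2 lay inside the WT range, the other 3 HET libraries lay above it, and the WT libraries were close together. The log2 fold change was 0.21 (SE 0.078, 95% interval 0.04 to 0.38), with an unadjusted p = 0.0216 and an adjusted p = 0.770 by edgeR, so it did not pass the test. Among libraries of the first set of title digits, the 3 HET libraries averaged 94.0 CPM against 76.8 CPM in 1 WT library, and in the second set the 1 HET library had 77.2 CPM against 78.8 CPM for 2 WT libraries. With the digits as a covariate the unadjusted p was 0.163. Amotl1 (ENSMUSG00000013076, chr9:14541966-14645056, minus strand) was at 113.4, 99.9, 119.4 and 114.1 CPM in HET and at 119.5, 97.6, 103.4 and 95.2 CPM in WT. Its groups overlapped over most of their range, with a log2 fold change of 0.10 (SE 0.079, 95% interval -0.07 to 0.28, adjusted p = 0.795).

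Ajuba, Lats2 and Ptpn14 act back on the cascade: the LIM protein Ajuba inhibits the LATS kinases, Lats2 phosphorylates YAP and TAZ, and the phosphatase Ptpn14 binds YAP and limits its activity. Ajuba (ENSMUSG00000022178, chr14:54567472-54577558, minus strand) was the least abundant target, at 9.38, 10.1, 7.46 and 10.6 CPM in HET replicates 1 to 4 and at 11.0, 11.3, 8.99 and 11.0 CPM in WT replicates 1 to 4. One library of each group, replicate 3 in both, was low, and 280 to 458 counts stood behind each value. The log2 fold change of Ajuba was -0.17 (SE 0.118, 95% interval -0.43 to 0.09, adjusted p = 0.778). Lats2 (ENSMUSG00000021959, chr14:57689662-57758388, minus strand) was at 40.6, 41.4, 45.3 and 48.3 CPM in HET and at 40.5, 43.0, 46.7 and 35.1 CPM in WT. WT replicate 4 was lowest and HET replicate 4 highest, with the other 6 libraries between them from both groups, and the log2 fold change was 0.09 (SE 0.088, adjusted p = 0.848). Its exons share 2955 bases with Gm49361 on the same strand, a gene that is not among those counted. Reads of that stretch counted for Lats2 may therefore come from either gene. Ptpn14 (ENSMUSG00000026604, chr1:189728268-189876695, plus strand) was at 53.8, 51.0, 58.9 and 55.1 CPM in HET and at 57.7, 52.9, 65.0 and 45.8 CPM in WT. Its exons share 177 bases with those of the antisense gene Gm26574, which had 1 to 8 counts. The HET libraries of Ptpn14 lay inside the WT range, and the log2 fold change was -0.02 (SE 0.096, 95% interval -0.23 to 0.20, adjusted p = 0.979).

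The remaining targets encode proteins of the cell surface. Axl, a receptor tyrosine kinase for the ligand Gas6, is at chr7:25757273-25788705 (ENSMUSG00000002602, minus strand) and was at 97.6, 100.7, 87.7 and 102.8 CPM in HET replicates 1 to 4 and at 98.9, 105.2, 100.03 and 107.1 CPM in WT replicates 1 to 4. It varied least of the 10, with a 1.22-fold range over the 8 libraries, and had a log2 fold change of -0.08 (SE 0.058, adjusted p = 0.787), with a 95% interval of 86.5% to 103.4% of the WT level. Gas6 itself was at 166 ± 6 and 168 ± 6 CPM. Crim1, a transmembrane protein that binds bone morphogenetic proteins, is at chr17:78200248-78376592 (ENSMUSG00000024074, plus strand) and was at 49.7, 41.7, 50.4 and 53.1 CPM in HET and at 46.7, 45.5, 49.9 and 43.5 CPM in WT. Its exons share 123 bases with those of Fez2 on the opposite strand, which had 2607 to 3602 counts against 1335 to 2065 for Crim1. HET replicate 2 was lowest and HET replicate 4 highest of all 8, and the log2 fold change was 0.07 (SE 0.075, 95% interval -0.10 to 0.24, adjusted p = 0.858).

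**Figure D3:**
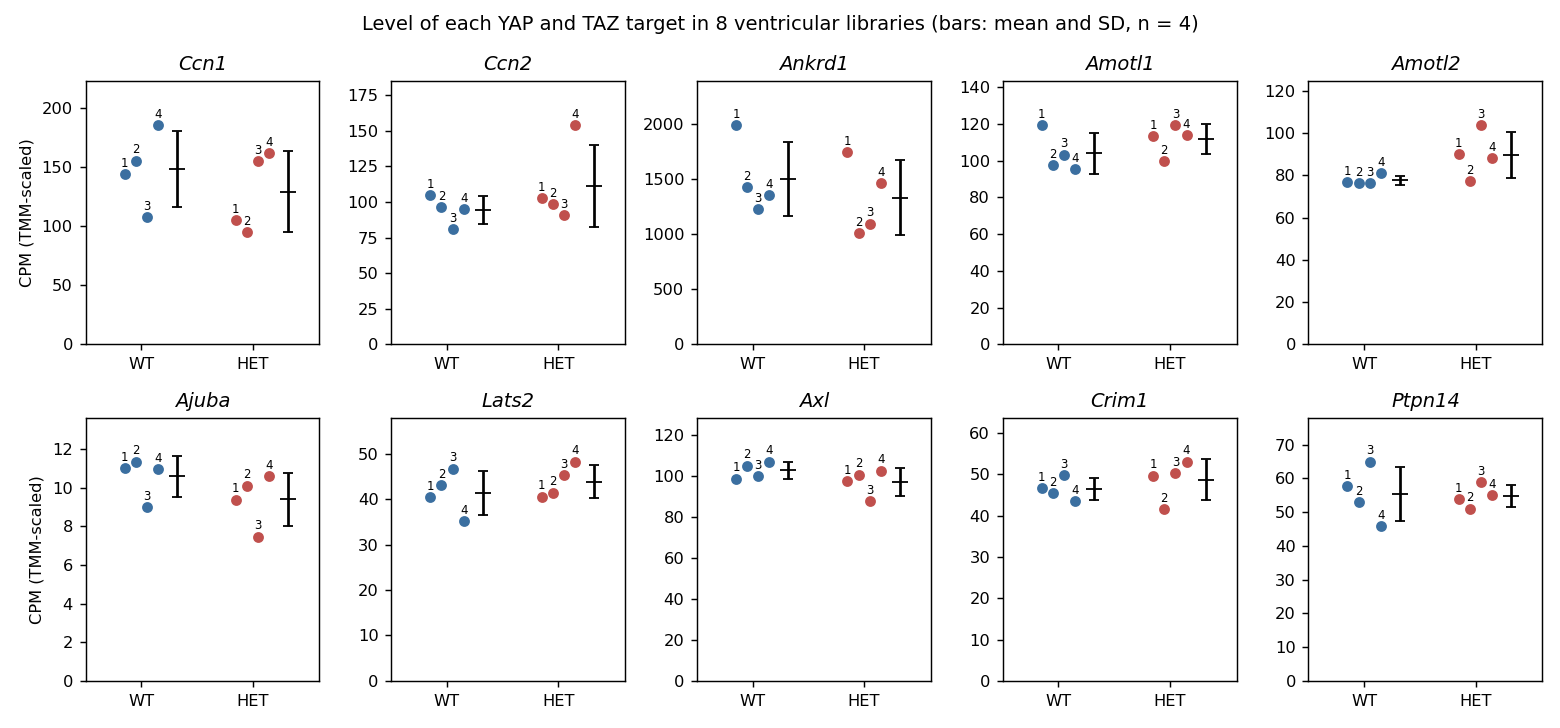
CPM of the 10 targets in each of the 4 HET and 4 WT libraries (points, numbered by replicate), with the mean and SD of each group (bars). The groups overlap in every panel, and the points are widest apart for Ccn1, Ccn2 and Ankrd1.

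Levels of different genes were compared per length, as CPM per kilobase of exon. In WT the order was Ankrd1 at 519, Ccn1 at 73.5, Ccn2 at 32.9, Axl at 20.4, Amotl2 at 12.4, Amotl1 at 10.3, Crim1 at 7.74, Lats2 at 5.93, Ptpn14 at 4.13 and Ajuba at 2.90 CPM per kilobase, and the HET means had the same order. Across the 8 libraries only the neighbours Ccn1 (47.2 to 92.2) and Ccn2 (28.2 to 53.9) had overlapping ranges. Within each library Ccn1 was above Ccn2 per kilobase in 8 of 8, and Ankrd1 was above Ccn1 in 8 of 8.

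The spread between libraries set the 3 genes Ccn1, Ccn2 and Ankrd1 apart from the rest. Their highest library was 1.91 to 1.97 times the lowest, against 1.22 to 1.52 times for the other 7. The coefficient of variation of Ccn1 was 26.3% in HET and 21.8% in WT and that of Ankrd1 25.6% and 22.5%. For Ccn2 it was 26.0% in HET and 10.6% in WT, and for Amotl2 12.2% and 2.93%. Counting error alone gives 0.429% to 5.13% for the 10 genes, the last for Ajuba, so for Ccn1, Ccn2 and Ankrd1 depth was not what limited precision. Across targets, HET replicate 4 was above the mean of the 8 libraries for 10 of 10, by as little as 0.01 (Ptpn14) on the log2 scale, and HET replicate 2 was below it for 8 of 10. The other 6 libraries were above it for 3 to 6 of 10. The same count was not made over all genes tested, so whether it is particular to the targets is not known. Without HET replicate 4 the median log2 fold change of the targets was 0.0068, and 5 of 10 were above 0. HET replicate 4 was highest of all for 3 (Ccn2, Lats2 and Crim1), HET replicate 2 was lowest for 3 (Ccn1, Ankrd1 and Crim1), and WT replicate 4 was highest for Ccn1 and Axl and lowest for Amotl1, Lats2 and Ptpn14. The largest departures of log2 CPM from a gene's mean over the 8 libraries were 0.61 for Ccn2 in HET replicate 4, 0.53 for Ankrd1 in WT replicate 1 and -0.51 for Ccn1 in HET replicate 2.

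**Figure D4:**
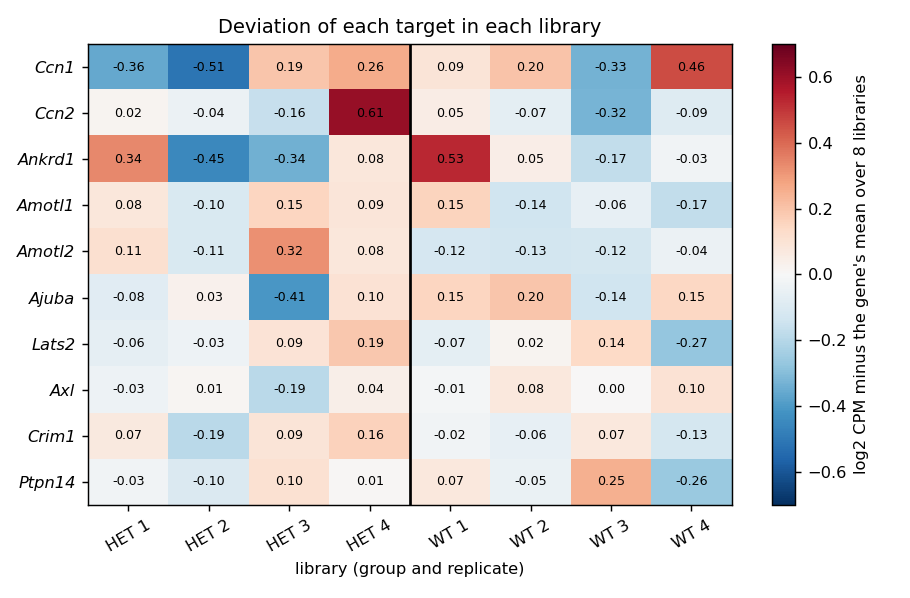
Departure of log2 CPM from each target's mean over the 8 libraries, with targets in rows and libraries in columns. The strongest cells are Ccn2 in HET replicate 4 (0.61), Ankrd1 in WT replicate 1 (0.53) and Ccn1 in HET replicate 2 (-0.51). HET replicate 4 is above the mean for all 10 targets, a count that was not made over all genes.

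Upstream of the targets, the coactivators and the cascade also did not pass the test. Yap1 was at 105.9, 105.5, 108.9 and 108.5 CPM in HET replicates 1 to 4 and at 100.6, 93.9, 111.5 and 88.0 CPM in WT replicates 1 to 4. The HET libraries were close together, and they lay inside the WT range only through WT replicate 3. The other WT libraries lay below every HET library. The log2 fold change was 0.12 (SE 0.068, 95% interval -0.03 to 0.27, adjusted p = 0.770). Without WT replicate 3 the Yap1 value was 0.18 (unadjusted p = 0.0067, adjusted p = 0.586 by edgeR). It was 0.07 without WT replicate 4 (unadjusted p = 0.281) and 0.16 by limma-voom (unadjusted p = 0.0286, adjusted p = 0.603). Wwtr1, which encodes TAZ, was at 74.7 ± 2.9 and 72.8 ± 5.4 CPM. Tead1, the gene of a TEAD factor, was at 44.0, 48.2, 50.6 and 43.0 CPM in HET and at 64.6, 36.3, 78.3 and 46.0 CPM in WT. Its WT libraries spanned both ends of the 8 values, and the log2 fold change was -0.28 (SE 0.233, 95% interval -0.83 to 0.27), or -0.08 without WT replicate 3 and -0.44 without WT replicate 2. Lats1 was at 19.9 ± 1.9 and 20.2 ± 2.5 CPM. Of 8 coactivator and TEAD genes tested (10 listed, with Vgll1 and Vgll2 below the filter) 5 were above 0, 3 below and 0 called, with a median of 0.05. The one of smallest p was Vgll4, a TEAD cofactor that competes with YAP, at 21.9 ± 2.2 and 19.4 ± 1.6 CPM (log2 fold change 0.17, unadjusted p = 0.063). Of 14 core kinases and adaptors tested 10 were above 0, 4 below and 0 called, with a median of 0.02, and the members of smallest p were Rassf1 at -0.16 (SE 0.094) and Frmd6 at 0.10 (SE 0.078).

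Among 12 junction and membrane regulators, 6 were above 0, 6 below and 0 were called, with a median of 0.0044. Dag1, the gene of dystroglycan, which binds laminin outside the cell and YAP inside it, was at 447, 362, 456 and 434 CPM in HET and at 397, 311, 407 and 323 CPM in WT. The groups overlapped, and the log2 fold change was 0.24 (SE 0.105, 95% interval 0.01 to 0.47, unadjusted p = 0.045, adjusted p = 0.770). With the title digits as a covariate it was 0.08 (unadjusted p = 0.377). The polarity gene Scrib was next by p, at 0.07 (SE 0.047).

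A second list of 14 YAP and TAZ targets did not pass the test either. Of 13 tested, 3 were above 0, 10 below and 0 called, with a median of -0.10, and 2 had an unadjusted p below 0.05: Tgfb2, a transforming growth factor ligand, at 7.27 ± 0.62 and 8.80 ± 1.29 CPM (log2 fold change -0.28), and Fjx1 at 0.56 ± 0.21 and 0.89 ± 0.19 CPM (log2 fold change -0.67). Both had an adjusted p = 0.770. Fjx1 rested on 13 to 42 counts a library. Of 8 relatives of the targets tested, 1 was above 0, 7 below and 0 called, with a median of -0.12. Tyro3, a receptor tyrosine kinase of the same family as Axl, had 2.26 ± 0.19 CPM in HET libraries against 2.81 ± 0.26 CPM in WT libraries, and its groups did not overlap (log2 fold change -0.32, SE 0.131, unadjusted p = 0.035, adjusted p = 0.770). Ccn3, a relative of Ccn1 and Ccn2, had -0.28 (SE 0.242).

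Immediate early genes and wall stress genes were read beside the targets because Ccn1 and Ankrd1 also respond to serum and load. Of 16 immediate early genes 4 were above 0, 12 below and 0 called, with a median of -0.19. Fosl2, an AP-1 subunit, was at 48.3, 37.2, 51.3 and 43.4 CPM in HET and at 30.5, 29.2, 43.0 and 27.0 CPM in WT. Only WT replicate 3 reached into the HET range, and the log2 fold change was 0.47 (SE 0.159, unadjusted p = 0.017, adjusted p = 0.770). Ier3 had -0.40 (SE 0.234), which was -0.02 with the title digits as a covariate and -0.20 without WT replicate 2. Of 6 wall stress genes 1 was above 0, 5 below and 0 called, with a median of -0.08, and Csrp3 had -0.07 (SE 0.077). Myh7 in that list was at 1055 and 1065 CPM in HET replicates 2 and 3 and at 1093 and 975 CPM in WT replicates 2 and 3. In replicates 1 and 4 of either group Myh7 was at 61.4 to 89.6 CPM. The natriuretic peptide gene Nppb had -0.16 (SE 0.127), which was -0.37 with the title digits as a covariate (unadjusted p = 0.000941, not called after adjustment) and -0.07 without WT replicate 1. Over these 7 pathway lists, 0 of 77 genes tested were called and 5 (6.49%) had an unadjusted p below 0.05, beside 6.38% of all genes.

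**Figure D5:**
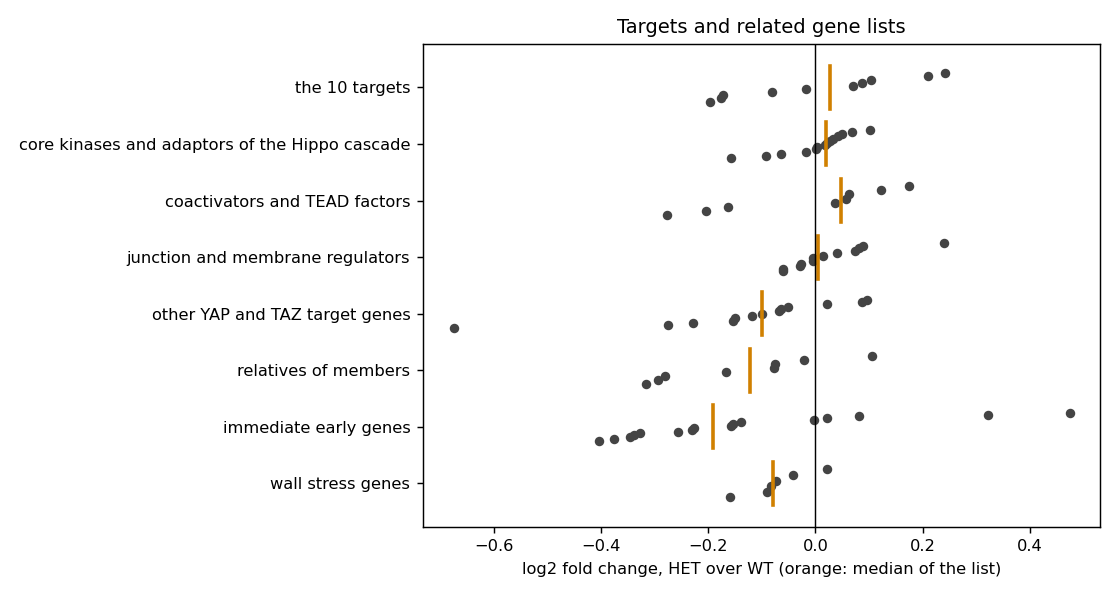
Fitted log2 fold change of HET over WT for each tested gene of the 10 targets and of the 7 pathway lists (points), with the median of each list (bars). The list medians lie between -0.19 and 0.05.

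Markers of the cell types that a ventricle can hold were summed for each library to set beside these values. Cardiomyocyte markers came to 68049 to 70660 CPM in HET and 63452 to 67769 CPM in WT, ranges that did not overlap, and 7 of 8 markers were above 0 with a median of 0.05. That median was 0.0084 with library-size scaling, 0.09 with the title digits as a covariate and 0.08 without WT replicate 2. Summed ranges of the other 8 marker lists overlapped between the groups. Fibroblast markers came to 1011 to 1239 and 1063 to 1227 CPM, with 7 of 8 below 0, and endothelial markers to 1098 to 1201 and 1100 to 1338 CPM. Smooth muscle and pericyte markers came to 1335 to 1449 and 1306 to 1477 CPM and macrophage markers to 335 to 394 and 344 to 490 CPM. Lymphocyte markers (2.20 to 3.06 and 2.21 to 3.91 CPM) and epicardial markers (8.66 to 11.9 and 9.12 to 10.8 CPM) were low. Adipocyte markers were also low, at 0.674 to 7.20 and 0.529 to 1.52 CPM, with Lep at 0 in every library. Their median log2 fold change was still the highest of the marker lists, at 1.64, with 3 of 3 tested above 0. At an unadjusted edgeR p below 0.05 there were 2 of 3 adipocyte markers and 2 of 8 cardiomyocyte markers. The endothelial, smooth muscle and pericyte, macrophage, lymphocyte and atrial lists had 1 each at that limit. The fibroblast and epicardial lists had 0, and the share over all genes tested was 6.38%. In every marker list 0 were called. The highest adipocyte sums were those of HET replicates 1 and 3 (5.67 and 7.20 CPM), with HET replicate 2 at 2.09 CPM. HET replicate 4, at 0.674 CPM, lay below WT replicates 2 to 4 (1.48, 1.52 and 1.38 CPM). Atrial markers, of which 2 of 6 passed the filter, came to 220 to 463 and 271 to 356 CPM. The part of the cardiomyocyte and adipocyte differences in the values of the targets was not tested.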

How the data were processed

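The table holds raw read counts per Ensembl gene for 8 libraries, deposited by the authors. The tools STAR (2.4.2a) and the counter HTSeq (0.6.1) and the builds GRCm38 and mm10 are named in the submitters' processing notes, and per the labels the libraries were stranded and polyA-selected. The strand setting of the counting is not given in the sources used here, so genes whose exons overlap a target's are named beside it. Symbols, positions and exon lengths came from GENCODE M21, and promoter windows from RefSeq tables on GRCm38.p6. The search of protein motifs was not run.

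Counts were fitted with edgeR 4.0.16 (filterByExpr, trimmed mean of M values scaling, robust quasi-likelihood test, R 4.3.3) on all 8 libraries with genotype as the only term, and p-values were adjusted over 14567 genes by Benjamini-Hochberg at 0.05. SEs and 95% intervals came from the same fit. The test was checked on simulated data. DESeq2 1.42.0 and limma-voom with a quality weight for each library (limma 3.58.1) were alternatives. Further alternatives were other scalings, no filter on low counts, the title digits as a covariate and each library left out. No pair of libraries of a group was alike within sampling noise (mean chi-square per gene 14.0 or more). WT replicate 3 stood furthest from its group: its pairs were at 68.0 to 85.8, and all other pairs of a group at 14.0 to 40.9. Named genes were Pkp2, the 10 targets, Yap1, Wwtr1, Tead1, Lats1 and, in each pathway list, those called and the 2 of smallest p. Gas6, Ankrd2, Ankrd23 and Myh7 were named after their values were seen. The members and lists were chosen with earlier results of these data known. Library sizes of 32397302 to 41234883 counts gave a counting error of 0.429% to 5.13% for the targets.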

Additional observations from a re-analysis of the deposited data

Results flagged for a closer look

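In 3 of 56 groups of 4 libraries, 1 library lay far from the other 3 for the size of the group's range, a rule that marks about 1 group in 20 by chance. Amotl2 was at 81.1 CPM in WT replicate 4, where the other WT libraries were at 76.3 to 76.8 CPM. Ajuba was at 8.99 CPM in WT replicate 3, where the others were at 11.0 to 11.3 CPM. Pkp2 was at 148.5 CPM in WT replicate 3, where the others were at 165.7 to 169.1 CPM.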

How the results depend on the processing

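Across 14 alternatives, 0 of the 10 targets were called in any, the smallest adjusted p of a target was 0.563, and 134 of 140 values kept their direction. The 6 that reversed lay between -0.0213 and 0.0673. They were Amotl1 at -0.0213 and Crim1 at -0.0086 with the title digits as a covariate, and Ptpn14 in the rest. Ptpn14, at -0.02 in the main fit, was at 0.0399 by limma-voom and at 0.0151 without HET replicate 2. It was at 0.0070 without WT replicate 1 and at 0.0673 without WT replicate 3. Its lowest value with a library left out was -0.0974, which kept its direction. Wwtr1 was at -0.0046 with library-size scaling and at -0.0015 with the digits. Lats1 was at 0.0252 with the digits and 0.0085 by limma-voom, and ranged from -0.0819 to 0.0605 as each library was left out. The cause was not tested. The median over the targets, 0.03, lay between -0.03 (digits) and 0.08 (without WT replicate 3), and was also below 0 with library-size scaling (-0.02) and without WT replicate 4 (-0.02). Targets at an unadjusted p below 0.05 numbered 0 to 2. There were 0 without HET replicate 3, with the digits or with library-size scaling, and 2 without HET replicate 2 or WT replicate 1. The count over all genes moved too, from 930 in the main fit to 531 without HET replicate 3 and 721 with the digits. It was 1084 with library-size scaling, 1206 without HET replicate 2 and 1241 without WT replicate 1. Genes called over the whole table were 14 by DESeq2, 2 with no filter on low counts, and 1 to 3 as each library was left out, with 3 without HET replicate 3. Library-size scaling moved the median of all genes to -0.05. Single libraries set part of the values: Ccn2 was at 0.05 without HET replicate 4, Ankrd1 at -0.01 without WT replicate 1, and without HET replicate 3 Amotl2 was at 0.13, Ajuba at -0.08 and Axl at -0.03. Amotl2 was at 0.28 without HET replicate 2 (adjusted p = 0.568 by edgeR). Fosl2 was at 0.64 without WT replicate 3 (adjusted p = 0.302 by edgeR). Ccn1 was at -0.07 without WT replicate 4 or HET replicate 2 and at -0.32 without WT replicate 3 or HET replicate 4. Lats2 was at 0.02 without WT replicate 4, Amotl1 at 0.18 without WT replicate 1 and Crim1 at 0.14 without HET replicate 2. With the digits, the unadjusted p was 0.163 for Amotl2, 0.147 for Fosl2, 0.128 for Tyro3, 0.0786 for Fjx1 and 0.0279 for Tgfb2. No paired analysis was possible because the replicate numbers were given in order of deposition and do not pair libraries.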

Other observations

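The ratio of Ccn2 to Ccn1 was chosen after the values were seen. On the log2 scale it was -0.04, 0.05, -0.78 and -0.07 in HET replicates 1 to 4 and -0.46, -0.69, -0.42 and -0.97 in WT replicates 1 to 4. HET replicate 3 lay inside the WT range and the other 3 HET libraries above it. The means were -0.21 ± 0.38 and -0.63 ± 0.25 (SD, n = 4 each), a difference of 0.42 with p = 0.114 by a two-sided exact permutation test over 70 splits, whose smallest possible value is 0.0286.

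Within libraries that share title digits, Ankrd1 had a log2 ratio of mean HET to mean WT CPM of -0.47 in the first set and -0.35 in the second set, and Ccn2 had 0.14 and 0.16. Ccn1 had -0.03 and -0.63, and Crim1 had 0.13 and -0.16. One side of each of these ratios is a single library. With the digits as a covariate the edgeR fit gave -0.42 for Ankrd1 (unadjusted p = 0.0635), 0.15 for Ccn2, -0.31 for Ccn1 and -0.0086 for Crim1, and none was called. WT replicate 2, with digits of its own, did not inform the genotype estimate of that fit.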
